A study of Mus musculus with 947 samples.

Results

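Limb muscle of surgically joined mice gave 30 small RNA libraries of the 947 in the series, and these are all libraries of the tibialis anterior, a limb muscle, in the parabiosis cohort. They came from 30 male mice in 15 pairs that shared a circulation, and the pair number and animal letter in each title, read with the deposited annotation, gave its group. Isochronic young mice (IY, n = 8, 4 pairs) were joined to a young partner, and isochronic aged mice (IA, n = 8, 4 pairs) to an aged one. In the 7 heterochronic pairs a heterochronic young mouse (HY, n = 7) was joined to a heterochronic aged mouse (HA, n = 7). All aged mice were 19 months old, HY mice were 4 months old, and IY mice were 3 months (n = 4) or 4.5 months old (n = 4). All HY mice were of a strain that no other group held. IY mice were C57BL/6J, as were all aged mice but 3, the IA pair 19 and the HA mouse of pair 20, which the study's sample list gives as C57BL/6JN. The study's reporting summary gives these substrains the other way round, so which mice were J and which JN is not settled here. Strain and partner therefore cannot be told apart in HY minus IY, nor strain and age in HA minus HY.

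Small noncoding RNAs shape gene expression after transcription. A miRNA pairs through its seed, bases 2 to 8, with target mRNAs and lowers their output. Heterochronic parabiosis exposes old tissue to young blood and young tissue to old blood. The question put to these libraries was whether a partner of the other age shifts noncoding RNA levels. The comparison HA minus IA is what the study calls rejuvenation, HY minus IY is what it calls accelerated aging, and IA minus IY and HA minus HY give the difference between aged and young mice in isochronic and heterochronic pairs. Levels are in rpmm, reads per 1e6 mapped reads. Differences are log2 fold changes of rpmm + 1 with their standard error from limma, which understate the change of RNAs at low levels, and an RNA was called at an adjusted p under 0.05 over all RNAs tested.

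The mature sequences of the miRNAs on which the results turn follow, from RefSeq (GRCm38.p6), with the seed in capitals. The first 6 lie in the imprinted Dlk1-Dio3 locus on chromosome 12 and were lower in aged mice of both pair types.
miR-136-3p: aUCAUCGUcucaaaugagucuu
miR-434-3p: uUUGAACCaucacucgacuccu
miR-337-3p: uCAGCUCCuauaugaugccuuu
miR-376b-5p: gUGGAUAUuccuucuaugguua
miR-300-5p: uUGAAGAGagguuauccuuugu
miR-541-5p: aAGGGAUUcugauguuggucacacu
Each of these 6 has a seed of its own. The other miRNAs shown come from elsewhere in the genome. Both arms of the miR-31 precursor were higher in IA, and miR-29b-3p was higher in aged mice of both pair types and is shown with its family. miR-34a-5p was higher in HA than in HY. miR-206-3p was also higher in HA than in HY, with an extreme value in 1 library, and miR-489-3p was lower in aged mice.
miR-31-3p: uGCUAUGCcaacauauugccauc
miR-31-5p: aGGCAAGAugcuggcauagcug
miR-29a-3p: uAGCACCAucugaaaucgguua
miR-29b-3p: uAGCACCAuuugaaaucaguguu
miR-29c-3p: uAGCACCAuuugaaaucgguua
miR-34a-5p: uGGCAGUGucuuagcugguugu
miR-206-3p: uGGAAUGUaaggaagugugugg
miR-489-3p: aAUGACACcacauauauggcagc
The 3 miR-29 miRNAs share the seed AGCACCA and differ only downstream of it.

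The libraries held between 16.3 and 36.2 M mapped reads (M, 1e6 reads), with a median of 21.9 M, so that 3 reads correspond to 0.0828 rpmm in the deepest library and 0.184 in the shallowest. Muscle fibre miRNAs summed to between 304003 and 589912 rpmm in every library, which fits the tissue label, and miR-1a-3p and miR-133a-3p were the most abundant of them. The library of HA mouse 14A stood apart, with a correlation of 0.959 with the median of the other libraries and the highest level of miR-206-3p, miR-21a-5p, miR-208b-3p and miR-223-3p of all 30. IY mouse 10B had a similarly low correlation, 0.962. Results that rest on 14A are given with and without it. Libraries were sequenced in 3 pools, and pool 2 (n = 7) held no IY library, pool 3 (n = 16) held all groups, and pool 4 (n = 7) held 1 HA and 1 HY library. Markers of epithelium and skin moved with the pool, with a summed level of 48.5 to 68.8 rpmm in pool 2 and 22.8 to 45.3 in the others, and markers of pancreas summed to 12.3 to 17.9 rpmm in pool 4 and at most 5.26 elsewhere.

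A partner of the other age left no RNA called in either direction of the exchange. In HA minus IA 0 of 3072 RNAs were called (0.0%), with 190 at an unadjusted p under 0.05, and in HY minus IY also 0 (0.0%), with 66 (limma). Without 14A 3 RNAs were called in HA minus IA, both arms of miR-31 and the lncRNA Gm49890, all lower, and 82 had an unadjusted p under 0.05. On recovered reads edgeR called none in either comparison, and DESeq2 called 1 in HA minus IA, miR-206-3p, and none in HY minus IY. The age comparisons did hold calls. Between isochronic pairs 135 RNAs were called in IA minus IY (4.39%), 7 higher (0.228%) and 128 lower (4.17%). Between heterochronic partners 91 were called in HA minus HY (2.96%), 31 higher (1.01%) and 60 lower (1.95%). The groups compared did not overlap for 3 RNAs higher (0.0977%) and 101 lower (3.29%) in IA minus IY. In HA minus HY they did not overlap for 33 RNAs higher (1.07%) and 19 lower (0.618%). Among the 495 miRNAs, 63 were called in IA minus IY (12.7%) and 46 in HA minus HY (9.29%), 6 of them higher in each (1.21%). Those higher were 15 in IA minus IY with median-ratio scaling and 14 in HA minus HY with isochronic and heterochronic partners as a random replicate block. Of the miRNAs 57 were lower in IA minus IY (11.5%) and 40 in HA minus HY (8.08%). With median-ratio scaling in place of rpmm as deposited, the split of IA minus IY was 33 higher and 122 lower. With the same random replicate block HA minus HY gave 155 calls, 51 higher and 104 lower. Without 14A, and with no block, it gave 179, 54 higher and 125 lower. Within pool 3 alone, 116 RNAs were called in IA minus IY but only 1 in HA minus HY, where 3 libraries a group remained.

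The Dlk1-Dio3 locus held most of what was lower in aged muscle. This imprinted region, GRCm38 chr12:109452823-110281097, expresses protein genes such as Dlk1 from the paternal chromosome and a series of noncoding RNAs from the maternal one. From the Meg3 start onward these are Meg3 itself, a proximal group of miRNAs, Rian with its C/D box snoRNAs, and a distal group of miRNAs that ends in Mirg. Of its 133 RNAs tested, 119 fell in IA minus IY and 0 rose, with a median log2 fold change of -1.30, where all 3072 RNAs had a median of -0.05. Elsewhere in the genome 9 of 2939 RNAs fell and 7 rose. In HA minus HY 56 of the 133 fell and 0 rose, with a median of -0.74 against 0.04 for all RNAs, and elsewhere 4 fell and 31 rose. Without 14A 114 of the 133 fell in HA minus HY with a median of -1.002. Within pool 3 alone 107 fell in IA minus IY with a median of -1.39, and 1 fell in HA minus HY with a median of -0.50. With the random replicate block 87 of the 133 fell in HA minus HY. The 133 RNAs held 119 distinct sets of values, since transcripts of 1 gene can share reads. Distinct sets can still be nearly the same. For instance the Rian transcripts ENSMUST00000201795.4 and ENSMUST00000202172.4 both had 139.1 rpmm in 14A. These counts are therefore not counts of separate observations. In these bulk samples fewer cells of a type and less RNA per cell cannot be told apart.

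Summed over the locus, the miRNAs reached 565 to 1552 rpmm in IY, with a median of 990, and 696 to 901 in HY, with a median of 806. In HA they lay between 243 and 700, with a median of 307, and in IA between 249 and 322, with a median of 278. The IY and IA ranges did not overlap, and the highest HA library, 14A, lay just above the lowest HY library. By class, 49 of 54 miRNAs, 22 of 24 snoRNAs and 48 of 55 lncRNA transcripts fell in IA minus IY. In HA minus HY 36 miRNAs, 4 snoRNAs and 16 lncRNA transcripts fell, and without 14A 47, 22 and 45. The summed snoRNA level was 414 to 872 rpmm in IY, 499 to 695 in HY, 242 to 1374 in HA and 202 to 296 in IA, and 14A was the highest of all libraries.

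All 14 proximal miRNAs tested fell in IA minus IY and 13 in HA minus HY, with median log2 fold changes of -1.74 and -1.29. The strongest was miR-136-3p (chr12:109595366-109595387). Its level was 15.6 to 42.8 rpmm in IY (median 24.5), 22.2 to 27.8 in HY (25.4), 2.76 to 8.10 in HA (3.91) and 2.08 to 5.6 in IA (4.03). Each aged library lay below each young one, where 3.29% of all RNAs had IA wholly below IY and 0.618% HA wholly below HY. The log2 fold change was -2.48 ± 0.20 in IA minus IY (limma, adjusted p 2.61e-10) and -2.32 ± 0.21 in HA minus HY (limma, adjusted p 7.48e-09). The other arm, miR-136-5p, fell by 2.19 and 1.51 on the log2 scale. At miR-434-3p (chr12:109594565-109594586) the levels were 8.94 to 28 rpmm in IY (median 17.2), 10.003 to 16.9 in HY (12.9), 1.22 to 4.63 in HA (1.78) and 1.75 to 3.08 in IA (2.09). Again the aged and young ranges were apart, and the fold changes were -2.41 ± 0.20 (limma, adjusted p 3.23e-10) and -2.20 ± 0.21 (limma, adjusted p 2.55e-08). miR-337-3p fell by 2.45 and 2.08, and miR-540-5p by 2.01 and 1.57. The most abundant member, miR-127-3p, which lies antisense to the retrotransposon-derived gene Rtl1, had 93.5 to 494 rpmm in IY (median 189), 90.8 to 156 in HY (119), 28 to 106 in HA (44) and 33.3 to 47 in IA (41.8). Its HY and HA ranges overlapped, and it fell by 2.22 in IA minus IY and by 1.15 in HA minus HY.

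**Figure D1:**
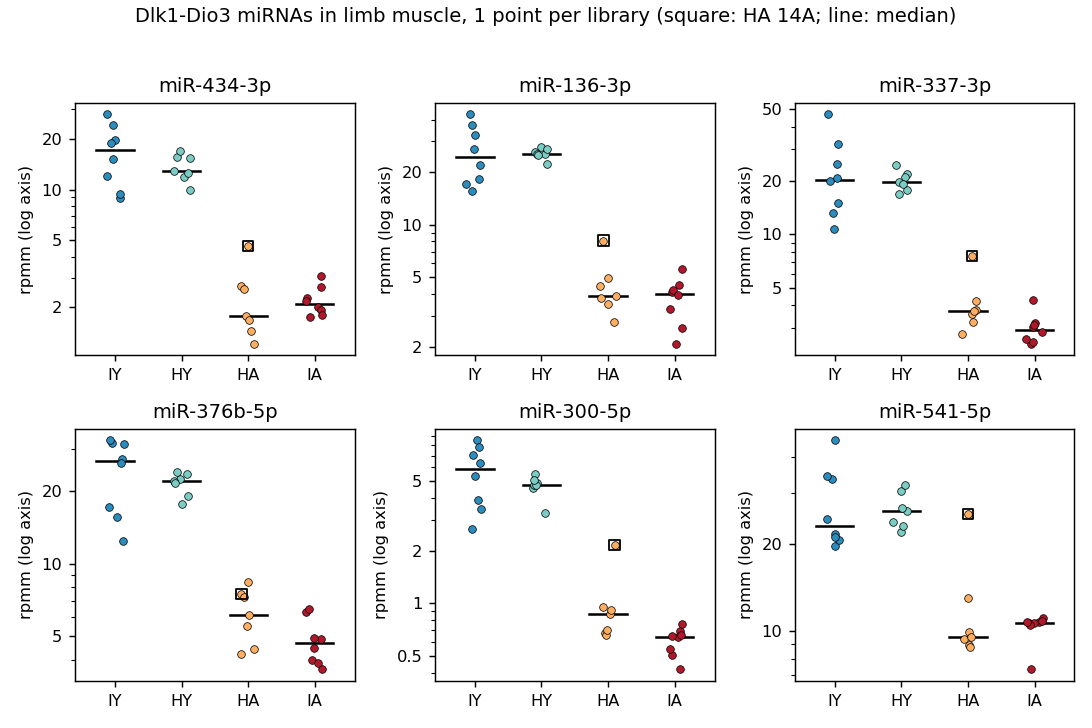
Levels of 6 Dlk1-Dio3 miRNAs in each limb muscle library, in rpmm on a log axis, for IY (n = 8), HY (n = 7), HA (n = 7) and IA (n = 8). Points are libraries, lines are group medians and the square marks HA 14A, which had the highest HA level of miR-434-3p (4.63), miR-136-3p (8.10), miR-337-3p (7.56), miR-300-5p (2.15) and miR-541-5p (25.3) but not of miR-376b-5p, and the IY and HY points lie above the aged ones apart from 14A in the miR-541-5p panel.

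Of the 39 distal miRNAs 35 fell in IA minus IY and 23 in HA minus HY (33 without 14A), with medians of -0.94 and -0.74. miR-376b-5p had 12.5 to 32.5 rpmm in IY (median 26.6), 17.6 to 24.1 in HY (22.1), 4.23 to 8.36 in HA (6.13) and 3.65 to 6.47 in IA (4.69). Its ranges in young and aged mice did not overlap, and it fell by 2.06 and 1.67 on the log2 scale (limma, adjusted p 5.92e-10 and 4.83e-07). miR-300-5p ran from 2.68 to 8.58 rpmm in IY and 3.27 to 5.52 in HY, and from 0.657 to 2.15 in HA and 0.419 to 0.765 in IA. Low levels limit the smallest of these values, and for miR-539-3p the IA libraries, at 0.0923 to 0.303 rpmm, stood at about 3 reads. miR-541-5p, 1 of the miRNAs the study follows across tissues, had 19.7 to 45.6 rpmm in IY, 22 to 31.8 in HY, 8.78 to 25.3 in HA and 7.34 to 11.1 in IA. Here 14A alone reached the young range, and the fall was 1.29 in IA minus IY and 1.14 in HA minus HY (limma, adjusted p 9.42e-06 and 0.000435).

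The fall did not run over the whole locus. Meg3, the first transcript of the series, was measured by 1 transcript, with a mean of 23.5 rpmm in IY, 21.7 in HY, 22.5 in HA and 21.1 in IA and fold changes of -0.14 ± 0.16 (limma, adjusted p 0.981) and 0.03 ± 0.17 (limma, adjusted p 0.954). Transcripts of B830012L14Rik, 155 kb from the Meg3 start, had values between -0.18 and 0.10 in both comparisons. At the far end miR-1247-5p, 737 kb from the Meg3 start, had 0.11 and -0.22. Between them 42 of 43 Rian transcripts and 6 of 7 Mirg transcripts fell in IA minus IY, against 15 and 1 in HA minus HY. Without 14A, which had 139 rpmm of the Rian transcript ENSMUST00000201795.4 where the other HA libraries had at most 37.7, 42 and 3 fell in HA minus HY. Rian hosts the snoRNAs, so the reads of the host and of the snoRNAs cannot be fully told apart. Nor are the transcripts of Rian or of Mirg all separate observations. The snoRNA gene DQ267101 fell by 1.36 in IA minus IY and 1.26 in HA minus HY, while Gm22981, with -0.33 and -0.30, passed in neither.

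**Figure D2:**
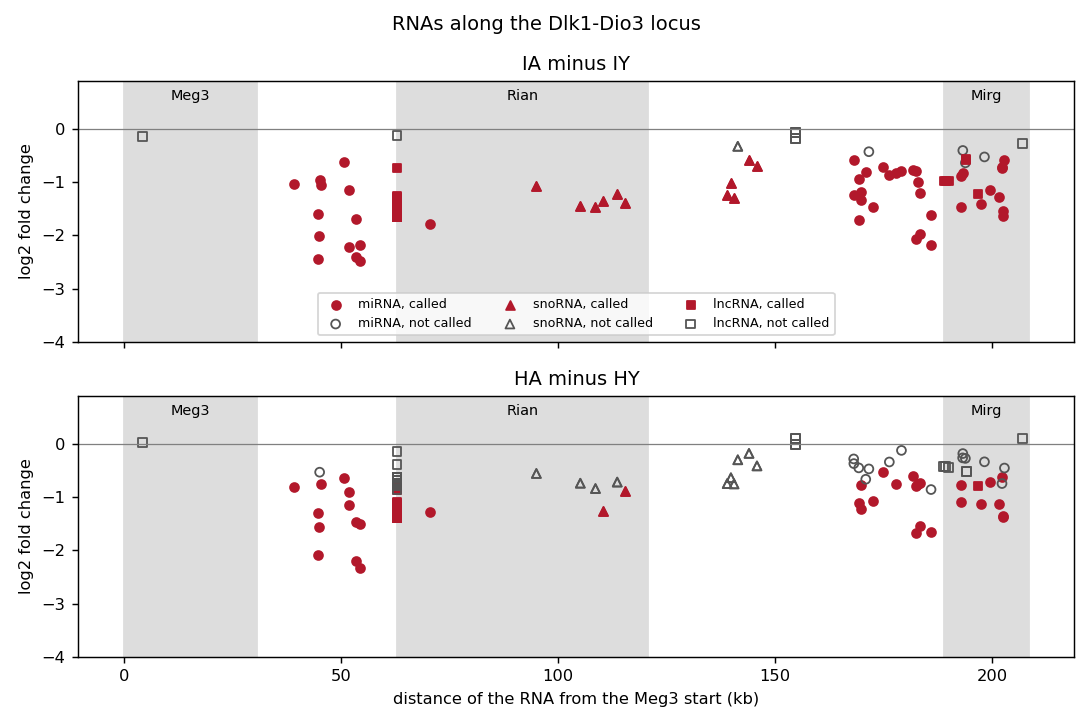
Log2 fold changes of the Dlk1-Dio3 RNAs with a known position within 230 kb of the Meg3 start, in IA minus IY (top) and HA minus HY (bottom), against the distance of each RNA from the Meg3 start in kb. Filled red symbols passed the test and open symbols did not, grey bands are Meg3, Rian and Mirg, and the miRNAs between Meg3 and Rian reach down to -2.48.

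The locus RNAs that fell with age were not called between groups of the same age. In HA minus IA 0 of 133 were called, with a median of 0.34 (limma), 124 above 0 and 40 at an unadjusted p under 0.05. All 3072 RNAs had a median of 0.11, with 2223 above 0 and 190 such p. Without 14A the locus median was 0.18 with 110 above 0 and 1 such p, while all RNAs had a median of 0.06 with 1898 above 0. Within pool 3 alone, which holds 14A, the locus median was 0.67 with 132 above 0 and 63 such p. All RNAs had 0.23 there, with 2235 above 0. With the pool as a covariate the locus median was 0.42 with 130 above 0 and 57 such p. All RNAs then had 0.12 with 2204 above 0, and again no locus RNA was called. For miR-136-3p the 95% interval of HA minus IA was -0.23 to 0.60, and for miR-434-3p it was -0.44 to 0.41. In HY minus IY the locus median was -0.08 with 92 below 0, where 1425 of 3072 RNAs and 353 of 495 miRNAs lay below 0. The locus median was 0.005 after median-ratio scaling and 0.04 with the pool as a covariate, so its sign depends on these settings. The 95% interval of miR-136-3p there was -0.38 to 0.44. miR-127-3p had -0.71 ± 0.29 in HY minus IY, with an adjusted p of 0.977 (limma).

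**Figure D3:**
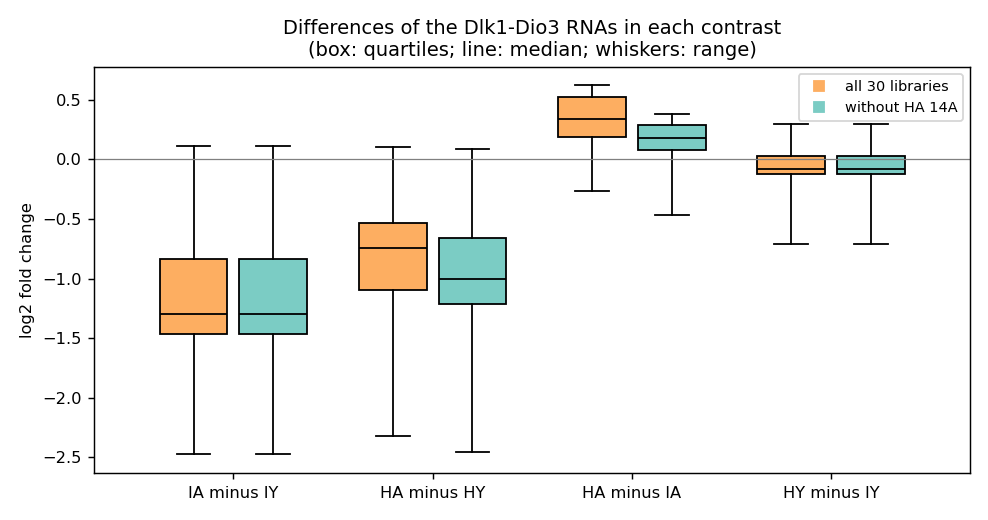
Log2 fold changes of the 133 Dlk1-Dio3 RNAs in each contrast, with all 30 libraries and without HA 14A. Boxes span the quartiles, lines are medians and whiskers the range, and the median of HA minus IA is 0.34 with 14A and 0.18 without it, while the medians of IA minus IY (-1.30) and HA minus HY (-0.74 and -1.002) lie below 0.

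miR-31 differed from the locus, since it was high in IA and closer to the young groups in HA. miR-31 is expressed in satellite cells, the stem cells of muscle, where it holds back the translation of the myogenic factor Myf5. Its 3p arm (chr4:88910577-88910599) had 0.0974 to 0.745 rpmm in IY (median 0.314), 0.148 to 0.579 in HY (0.338), 0.307 to 4.92 in HA (0.739) and 2.08 to 7.35 in IA (3.52). All 8 IA libraries lay above all young libraries, where 0.0977% of all RNAs had IA wholly above IY. Of the HA libraries 5 of 7 lay below the lowest IA library. The log2 fold change of IA minus IY was 1.87 ± 0.24 (limma, adjusted p 1.24e-06). HA minus IA was -1.09 ± 0.25, with a 95% interval of -1.59 to -0.58, an unadjusted p of 0.00012 and an adjusted p of 0.369, so that it was not called. In HA minus HY it was 0.77 ± 0.26 (limma, adjusted p 0.117), and with the random replicate block the adjusted p was 0.0309.

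The 5p arm followed the 3p arm. miR-31-5p had 1.22 to 4.11 rpmm in IY (median 2.27), 2.07 to 4.51 in HY (3.01), 3.22 to 53.7 in HA (4.54) and 9.21 to 40.2 in IA (15.3). The 53.7 rpmm belonged to 14A, the highest of the 30 libraries, and the next HA library had 13.3. IA minus IY was 2.60 ± 0.37 (limma, adjusted p 8.22e-06) and HA minus IA was -1.16 ± 0.38 (limma, adjusted p 0.731). Without 14A the 3p arm had -1.31 ± 0.22 in HA minus IA and the 5p arm -1.60 ± 0.30 (limma, adjusted p 0.00433 and 0.0087), and both were called together with Gm49890, a lncRNA. Its values ran in parallel with miR-31-5p, with r 0.999 over 30 libraries, so it adds no separate observation. Without the mice of pairs 19 and 20, the pairs to which the sample list gives C57BL/6JN mice, miR-31-3p was also called, with -1.42 ± 0.26 (limma, adjusted p 0.019). These pairs hold all aged libraries of pool 4, so substrain and pool cannot be told apart there. Within pool 3 alone miR-31-3p had -1.28 (limma, adjusted p 0.186). With isochronic and heterochronic partners as a random replicate block its adjusted p was 0.854.

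The rise of miR-31 with age was not seen in the aging cohort of this series, 47 limb muscle libraries of unjoined mice of both sexes. There the 3p and 5p arms had 0.06 ± 0.34 and -0.09 ± 0.55 in 21 minus 3 months (limma, adjusted p 0.995 for both). Of the 47 libraries only those of these 2 ages give this difference, and depth in the cohort ran from 2.68 to 111 M mapped reads. With these standard errors a change of either sign could be missed. The difference between the cohorts was not tested. Joining, sex, age and possibly substrain differ between them and cannot be told apart. In heart, the other striated muscle sampled from the same mice, miR-31-5p had 0.37 in IA minus IY, and the difference between limb muscle and heart was 2.23 ± 0.40 (limma, adjusted p 0.000145).

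Outside the locus 2 RNAs, miR-29b-3p and miR-34a-3p, rose in aged muscle of both pair types. The miR-29 family targets collagens and other matrix proteins, and miR-29b-3p had 3664 to 6028 rpmm in IY (median 3962), 3478 to 6695 in HY (4221), 5737 to 17160 in HA (11285) and 5775 to 10165 in IA (8267). Single young and aged libraries overlapped. The log2 fold changes were 0.92 ± 0.19 in IA minus IY and 1.2 ± 0.20 in HA minus HY (limma, adjusted p 0.000947 and 0.000228). All 7 family members tested had values above 0 in both age comparisons, 2 of them called in IA minus IY and 1 in HA minus HY, where 1.21% of all miRNAs were called higher in each, and the medians were 0.34 and 0.29. miR-29c-3p rose in IA minus IY, by 0.53 ± 0.15 (limma, adjusted p 0.0212), and had 0.29 ± 0.16 in HA minus HY (adjusted p 0.525). Its HA minus IA value was -0.08 ± 0.15, with a 95% interval of -0.39 to 0.23. miR-29a-3p had 0.34 ± 0.13 and 0.40 ± 0.13 in the age comparisons and was not called.

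miR-34a is a direct target of p53. miR-34a-5p had 185 to 350 rpmm in IY (median 284), 169 to 273 in HY (246), 316 to 583 in HA (412) and 321 to 437 in IA (363). HA and HY did not overlap, whereas IY reached into the IA range. Of all RNAs tested 1.07% had HA wholly above HY. HA minus HY was 0.83 ± 0.17 (limma, adjusted p 0.00324) and IA minus IY was 0.46 ± 0.16 (adjusted p 0.126). The 3p arm rose in both, by 0.54 ± 0.13 and 0.48 ± 0.13 (limma, adjusted p 0.00434 and 0.0389).

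**Figure D4:**
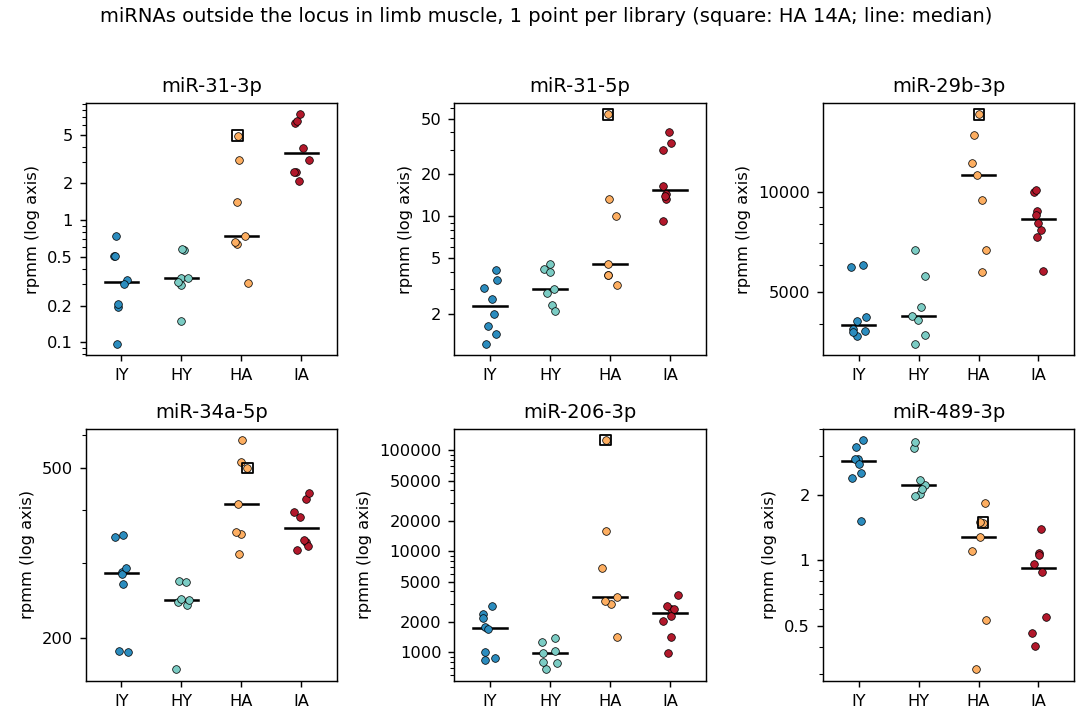
Levels of 6 miRNAs outside the Dlk1-Dio3 locus in each limb muscle library, in rpmm on a log axis, with group medians as lines and HA 14A as a square. Both arms of miR-31 have their highest medians in IA, miR-29b-3p and miR-34a-5p have higher medians in HA and IA than in IY and HY, miR-206-3p reaches 125848 rpmm in 14A, and miR-489-3p has its lowest values in HA and IA.

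Lower in aged muscle outside the locus were miR-489-3p, miR-653-3p and members of the miR-181 family. miR-489 keeps satellite cells quiescent. miR-489-3p (chr6:3721922-3721944) had 1.51 to 3.56 rpmm in IY (median 2.84), 1.96 to 3.47 in HY (2.21), 0.315 to 1.83 in HA (1.28) and 0.404 to 1.39 in IA (0.919). All IA libraries lay below all young ones, and HA lay below HY but reached into the IY range. The fold changes were -1.02 ± 0.15 and -0.73 ± 0.16 (limma, adjusted p 1.64e-05 and 0.0056). miR-653-3p, encoded next to it, fell by 0.62 and 0.63, and the levels of both had r 0.919 over the 30 libraries. miR-181c-5p ran from 71.0 to 136 rpmm in IY and 72.2 to 131 in HY, and from 60.4 to 85.8 in HA and 49.1 to 73.2 in IA, and fell by 0.82 and 0.62. All 8 miR-181 members tested had values below 0 in both comparisons, 3 of them called in IA minus IY and 2 in HA minus HY, with medians of -0.42 and -0.34, where 11.5% and 8.08% of all miRNAs were called lower and 352 and 253 of 495 miRNAs lay below 0. miR-455-5p fell in IA minus IY only by the test, with -0.58 ± 0.16 against -0.01 ± 0.17 in HA minus HY, and the difference of these differences, 0.58 ± 0.23, had an adjusted p of 0.937 (limma).

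miR-206-3p, a miRNA confined to skeletal muscle that rises in regenerating and denervated fibres, was called in HA minus HY with a value that 14A raised. Its level was 832 to 2884 rpmm in IY (median 1727), 675 to 1377 in HY (992), 974 to 3680 in IA (2471) and 1417 to 125848 in HA (3488). The next highest HA library had 15901 rpmm, and each HA library lay above each HY library, as for 1.07% of all RNAs. HA minus HY was 2.82 ± 0.57 (limma, adjusted p 0.00321), and 2.12 with an adjusted p of 0.000304 without 14A. HA minus IA was 1.64 ± 0.55 (adjusted p 0.731) and 0.94 without 14A (adjusted p 0.997). DESeq2 on recovered reads called it in HA minus IA, with 2.98 ± 0.59 (adjusted p 0.00122). The other fibre miRNAs were not called in any contrast. miR-1a-3p had -0.32 ± 0.20 in HA minus IA, miR-133a-3p -0.22 ± 0.16 and miR-499-5p 0.49 ± 0.24, and miR-208b-3p, which comes from a slow myosin gene, had 1.21 ± 0.43 with 40.8 rpmm in 14A and at most 4.91 in the other HA libraries.

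A group of RNAs that were higher in HA than in HY ran in parallel. miR-1895, 1 of the miRNAs the study follows across tissues, had 2.41 to 7.17 rpmm in HY (median 4.12) and 7.12 to 23.6 in HA (8.0), and 3.45 to 9.07 in IY (5.70) and 6.17 to 13.3 in IA (9.61). It rose by 1.03 ± 0.23 in HA minus HY (limma, adjusted p 0.0056) and had 0.64 ± 0.21 in IA minus IY (adjusted p 0.123). The lncRNAs Gm32338, Gm2379, Gm46392 and 5430440P10Rik rose by 1.09 to 1.18 in HA minus HY, and the log2 levels of miR-1895 and Gm32338 had r 0.991 over the 30 libraries. HA mouse 5A had the highest level of all of them, for instance 340 rpmm of Gm32338 against a group median of 130. Whether these RNAs share reads was not tested. Fragments assigned to tyrosine tRNA genes also rose in HA minus HY, 6 of them called, where 1.01% of all RNAs were called higher. Gene copies had nearly the same values, for instance 3.78, 3.78 and 3.71 rpmm of tRNA-Tyr-GTA-1-1, 1-2 and 1-3 in HY 2B. These calls are therefore not 6 separate observations. tRNA-Tyr-GTA-4-1 had 2.63 to 4.11 rpmm in HY and 3.37 to 8.68 in HA, with 0.63 ± 0.15 (limma, adjusted p 0.0126). For HA minus IA it had 0.62 ± 0.15, the second smallest p of that comparison, and an adjusted p of 0.41.

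The age differences of isochronic and heterochronic pairs rest on different mice and could be set side by side. Of the 135 RNAs called in IA minus IY and the 91 called in HA minus HY, 62 were shared, 45.9% of the first and 68.1% of the second, and all 62 had the same sign. Of these 56 were locus RNAs. Over all 3072 RNAs the fold changes had r 0.58, a description across RNAs that share libraries. The test of the difference of differences, HA minus IA less HY minus IY, called 0 RNAs (0.0%), with 118 at an unadjusted p under 0.05 (limma), so that no RNA was shown to change differently with age in the pair types. edgeR called none there and DESeq2 1, miR-206-3p.

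**Figure D5:**
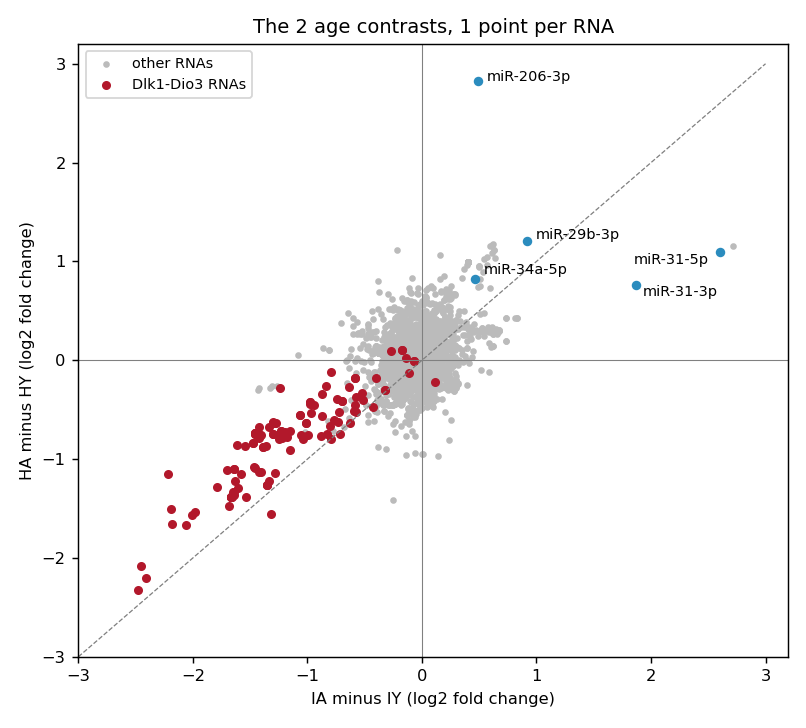
Log2 fold changes of the 3072 RNAs in IA minus IY (horizontal) and HA minus HY (vertical), with the 133 Dlk1-Dio3 RNAs in red and 5 named miRNAs in blue. Most red points lie in the lower left, the dashed line marks equal values, miR-206-3p stands at 2.82 in HA minus HY and miR-31-5p at 2.60 in IA minus IY.

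The aging cohort gave a reference without joined mice. There 132 of 3868 RNAs were called in 21 minus 3 months (3.41%), all lower with age, and 116 of them were tested in both cohorts. Of these 105 were also called in IA minus IY, 90.5% of the 116 and 77.8% of the 135, and 51 in HA minus HY, 44% of the 116 and 56% of the 91. Without 14A 103 of the 116 were called in HA minus HY with a median of -0.99, and with the random replicate block 78. All shared calls had the same sign, and 107 of the 116 were locus RNAs. The median over the 116 was -2.46 in the aging cohort, -1.30 in IA minus IY and -0.74 in HA minus HY. Because the 116 were chosen by their calls in the aging cohort, which favours large values there, these medians are not like for like. All 3023 RNAs tested in both cohorts had medians of -0.245, -0.053 and 0.045 in the same order. In HA minus IA the median of the 116 was 0.34 with 108 above 0, and 0.17 with 91 above 0 without 14A. In HY minus IY it was -0.09 with 84 below 0. None of the 116 was called in HA minus IA or HY minus IY. Over all 3023 RNAs tested in both cohorts the medians of these 2 comparisons were 0.12 and 0.02, with 818 and 1401 of them below 0.

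Of the 8 miRNAs that the study follows as global aging miRNAs, 7 passed the filter on low values. In IA minus IY miR-541-5p, miR-300-3p and miR-487b-3p fell and miR-29c-3p rose, and in HA minus HY miR-300-3p and miR-541-5p fell and miR-1895 rose. miR-155-5p, an immune cell miRNA, had 165 to 322 rpmm in IY, 138 to 225 in HY, 171 to 294 in HA and 168 to 229 in IA, and was not called in any contrast. The study chose these 8 on the tissues of the aging cohort, limb muscle among them.

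In heart of the same mice the locus behaved otherwise in isochronic pairs. Over the 125 locus RNAs tested in both tissues, the median of IA minus IY was -1.30 in limb muscle and -0.10 in heart, and the difference between the tissues was called for 83, all lower in limb muscle, among 130 called of 2853 RNAs (4.56%), 125 of them lower (4.38%). In HA minus HY the medians were -0.74 in limb muscle and -0.54 in heart, 61 locus RNAs were called in heart, and the difference was called for 6 of the 25 called (0.876%), and for 8 without mouse 14A. Of all RNAs tested in heart alone 10.6% were called in HA minus HY, and in IA minus IY 3.51% were called higher and 0.526% lower. In HA minus IA, where limb muscle had no call, 9.74% were called higher in heart and 5.01% lower, 421 of 2853 in all, and 6 of them were locus RNAs. For miR-31 without mouse 14A, HA minus IA was lower in limb muscle than in heart, by -1.37 ± 0.28 for the 3p arm and -1.79 ± 0.34 for the 5p arm (limma, adjusted p 0.00964 and 0.00271), while with that mouse the adjusted p was 0.102 and 0.134 among 21 calls (0.736%).

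Signs of other cells were read beside these results. In IA minus IY the 6 fibroblast miRNAs summed to 5344 to 8714 rpmm in IY and 3981 to 6483 in IA (exact permutation test, two-sided, unadjusted p 0.00637, adjusted p 0.0569). All 6 had values below 0, with a median of -0.39 against -0.11 for all miRNAs, of which 352 of 495 lay below 0. Of the 6, 0 were called, and none was at 0 in all libraries. The 19 epithelium and skin miRNAs, 9 of them tested and 0 called, summed to 25.1 to 32.3 rpmm in IY and 24.95 to 64.0 in IA (exact permutation test, two-sided, adjusted p 0.0459), and the single IA library of pool 2 was the highest. Their part in the result was not tested. Within pool 3 alone the epithelium and skin markers summed to 22.8 to 39.4 rpmm. White blood cell markers summed to 413 to 1254 rpmm in IY, 394 to 704 in HY, 435 to 907 in HA and 478 to 783 in IA, and their adjusted p was at least 0.355 in the 4 contrasts. The share of no RNA class differed in any contrast (exact permutation tests, two-sided, 0 of 32 pass). miRNAs made up 29.2% to 48.3% of the summed signal, and the smallest adjusted p, 0.179, was that of rRNA in IA minus IY, 6.13% ± 0.891 (SD, n = 8) in IA and 7.6% ± 0.852 (SD, n = 8) in IY (exact permutation test).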

How the data were processed

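The submitters' notes give mm10 as the build, and GENCODE M21 (GRCm38) was used here for classes and positions. Per the labels and methods, the authors processed single-end reads with miRMaster and Bowtie, kept the first of several paralogs and RNAs of at least 1 rpmm in 1 library, and deposited for each library the signal of every RNA as rpmm, reads per 1e6 mapped reads. A class that takes more reads therefore leaves fewer for others. The smallest value above 0 of RNAs other than miRNAs was taken as 1 read. With a tolerance of 0.05 reads, 100% of other values and 98.8% of miRNA values were then whole, and these reads gave the depth and the tests with edgeR 4.0.16 and DESeq2 1.42.0, which are alternatives. No libraries were identical.

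RNAs of at least 1 rpmm in 10% of the 30 libraries were tested, 3072 in all and 495 of them miRNAs, and 311 of them had values identical to those of another RNA. The test was limma 3.58.1 in R 4.3.3 on log2(rpmm + 1), eBayes with trend, 4 groups in 1 fit, Benjamini-Hochberg adjustment over all RNAs, threshold 0.05. Limb muscle minus heart was fitted with the mouse as a random block on the 2853 RNAs that pass in both tissues, and the aging cohort with age as a factor. Class shares and summed list levels were compared by exact permutation of the difference of means, adjusted over classes or lists and contrasts. The script was tested on simulated data. Members and lists were chosen with earlier results of these data known.

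Named RNAs were, per contrast, up to 8 called RNAs in each direction by fold change with at least 10 rpmm in the higher group, the 5 smallest p where fewer than 5 were called and for the difference of differences, up to 4 called members of each list, the study's global aging miRNAs and 5 fibre miRNAs. Meg3, B830012L14Rik, DQ267101, Gm22981, miR-1247-5p, miR-21a-5p, miR-223-3p and miR-653-3p were named after their values were seen. Heterochronic partners are joined mice with 1 pair number, and the deviations of partners from their group means correlated in all 7 pairs (r 0.127 to 0.767). Both partners of each such pair were in the same pool, so pair and pool cannot be told apart there. Of the HA libraries 4 were closest to their own HY partner. In the 8 isochronic pairs r was 0.0142 to 0.825, while the main test treats their mice as independent. From the 2 tables, 116 and 724 columns of other tissues were not used. The name of the HY strain is not reported here.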

Additional observations from a re-analysis of the deposited data

Results flagged for a closer look

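In the 4 groups of 7 or 8 libraries, 236 sets of values of named RNAs were checked for a highest or lowest library far from the others by Dixon's criterion. The sets share libraries, and some RNAs have nearly the same values, so they are not independent. Of the 236 sets 38 (16.1%) had such a library, where chance gives about 1 in 20 for independent sets. HA 14A gave 11 of them, with the highest HA level of both Rian transcripts (139 rpmm), miR-208b-3p (40.8), miR-21a-5p (9432), miR-300-3p (13.2), miR-300-5p (2.15), miR-337-3p (7.56), miR-376c-3p (18.4), miR-381-5p (2.93), miR-487b-3p (9.38) and miR-541-5p (25.3). HA 5A was the highest HA library for Gm32338 (340 rpmm), Gm2379 (233), Gm46392 (125.5), 5430440P10Rik (71.2), the BC043934 transcripts ENSMUST00000070500.2 (46.8) and ENSMUST00000185694.1 (46.99), miR-1895 (23.6), miR-181d-5p (21.96), miR-148b-5p (8.34) and miR-331-5p (1.78), and the lowest for miR-29a-3p (6151). Among IA libraries 7A was the lowest for miR-1a-3p (143800), miR-381-5p (0.0923) and miR-541-5p (7.34), 19A was the lowest for tRNA-Pro-CGG-1-1 (177.6) and tRNA-Pro-TGG-2-1 (244) and the highest for 4930449C09Rik (0.446), 7B was the highest for miR-181d-5p (15.7) and 9B for miR-337-3p (4.30). Among HY libraries 2B was the lowest for tRNA-Tyr-GTA-1-1 and tRNA-Tyr-GTA-1-2 (3.78 each), tRNA-Tyr-GTA-1-3 (3.71) and miR-34a-5p (168.6), 11B the lowest for miR-300-5p (3.27) and 12B the highest for miR-208b-3p (2.91). Among IY libraries 10B was the lowest for miR-133a-3p (113700) and 16A the highest for miR-223-3p (88.3).

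The difference between limb muscle and heart passed the test (limma, mouse as a random block) for 21 RNAs in HA minus IA (0.736%), 130 in IA minus IY (4.56%) and 25 in HA minus HY (0.876%). In IA minus IY limb muscle differed from heart by 2.32 for Gm49890, 2.23 for miR-31-5p, 1.27 for miR-31-3p, -2.73 for miR-434-3p, -2.34 for miR-136-5p, -2.23 for miR-208b-3p, -2.16 for miR-337-3p, -2.03 for miR-376b-5p, -2.02 for miR-127-3p, -1.94 for miR-136-3p, -1.88 for miR-300-5p, -1.69 for miR-540-5p, -1.39 for miR-341-3p, -1.11 for miR-455-5p and -1.04 for miR-300-3p, all on the log2 scale. In HA minus HY it differed by 2.61 for miR-206-3p (1.92 without mouse 14A, adjusted p 0.0187), -1.75 for miR-1895, -1.68 for miR-136-3p and for both BC043934 transcripts, -1.59 for miR-337-3p, -1.39 for miR-434-3p, -1.17 for miR-300-5p and -1.03 for miR-376b-5p. In HA minus IA it differed by 2.44 for miR-208b-3p and -1.73 for miR-1895. Without mouse 14A, in HA minus IA miR-208b-3p had 1.87 (adjusted p 0.113) and miR-1895 -1.64 (0.105), and in HA minus HY miR-1895 had -1.66 (0.0986) and the BC043934 transcripts -1.59 and -1.58 (0.131 each), so that these calls were lost while the values of miR-1895 and BC043934 stayed about as large.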

How the results depend on the processing

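Leaving out each library in turn gave 0 to 3 RNAs called in HA minus IA and 0 to 2 miRNAs, 0 to 0 in HY minus IY and in the difference of differences, 126 to 165 RNAs (56 to 67 miRNAs) in IA minus IY, 81 to 179 (37 to 63) in HA minus HY, and 99 to 131 in the aging cohort. The extremes of HA minus IA (3 RNAs, 2 miRNAs) and HA minus HY (179 RNAs) came from leaving out HA 14A. Without that mouse, an alternative chosen after seeing the data, limb muscle minus heart gave 3 calls in place of 21 in HA minus IA and 13 in place of 25 in HA minus HY. In HA minus IA 1 RNA was called with miRNAs only (miR-31-3p, adjusted p 0.0498), 1 with DESeq2 (miR-206-3p) and 1 without pairs 19 and 20 (miR-31-3p), and in HY minus IY 1 with no filter (Gm21388). DESeq2 called 1 in the difference of differences. IA minus IY gave 43 calls with a mean of at least 10 rpmm and 72 with miRNAs only, both of which test fewer RNAs, and HA minus HY gave 35 and 59. In HA minus HY DESeq2 called 143, the random replicate block by pair 155 and pool 3 only, chosen after seeing the data, 1. With the pair as a fixed replicate block it gave 73, and in IA minus IY the random block gave 119. The random block also moved the miRNAs called higher in HA minus HY from 6 to 14, the locus RNAs called there from 56 to 87 (snoRNAs 4 to 12, lncRNA transcripts 16 to 35, Rian 15 to 32, Mirg 1 to 3) and the aging-cohort RNAs called there from 51 to 78. In the other 3 contrasts it moved no count of calls over all RNAs, miRNAs, locus RNAs or aging-cohort RNAs by over 1.5 times. The aging cohort gave 57 calls in 18 minus 3 months and 54 with a mean of at least 10 rpmm, against 132. Limb muscle minus heart gave 9 calls in HA minus IA, 35 in IA minus IY and 1 in HA minus HY with a mean of at least 10 rpmm in both tissues, and 9 in HA minus HY with a pseudocount of 0.1. The cause of the other moves was not tested. The ratio and p criterion of the study, a ratio of means over 3/2 or under 2/3, was applied with limma's unadjusted p. Over the 3072 RNAs it gave 149 in HA minus IA (4.72% higher, 0.13% lower) and 49 in HY minus IY (0.944%, 0.651%). It gave 195 in IA minus IY (0.749%, 5.6%) and 276 in HA minus HY (4.1%, 4.88%). The study counted miRNAs only. Of the 495 miRNAs 16 were higher (3.23%) and 2 lower (0.404%) in HA minus IA, and 3 (0.606%) and 12 (2.42%) in HY minus IY.

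Of 53 pairs of a named RNA and a contrast that were called, 8 lost the call when some single library was left out and 35 under at least 1 other alternative, and no called value of a named RNA turned its sign. Depth limits RNAs near 3 reads, and the intervals given for HA minus IA and HY minus IY bound what 7 against 8 libraries could show.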

Other observations

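Among RNAs that no comparison above describes, the miRNAs of the Gnas locus, miR-296 and miR-298, another imprinted group, stayed under the filter on low values and were read as a sum. It was 0.730 to 2.07 rpmm in IY (median 1.45), 0.675 to 1.08 in HY (0.810), 0.368 to 7.11 in HA (0.676) and 0.281 to 0.934 in IA (0.596). 14A again gave the highest HA value, and the next HA library had 1.03.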
